A study of Mus musculus with 6 samples.

Results

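The 9 genes described here, Rnf133, Rnf148, Rnf151, Ubqlnl, Asb17, Klhl10, Marchf11, Spem1 and Alox15, encode proteins of the ubiquitin pathways and of cytoplasm removal in spermatids. They were chosen by symbol, and all 9 were found among the 34144 rows of the gene tables. RNA had been measured by sequencing of libraries depleted of ribosomal and globin RNA in the testes of 6 C57Bl/6J mice aged 3 months, 3 wild type and 3 Nsun7-/-. Per the labels' protocols the testes were decapsulated and the tubules used, so each library holds the RNA of germ cells and somatic cells together. No treatment is given for either group, and the labels do not describe the Nsun7 allele or the cells in which it acts. The comparison of the genotypes asked whether transcripts of late spermatids change when Nsun7, a putative RNA methyltransferase, is disrupted.

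Ubiquitin is attached to proteins by a chain of activating, conjugating and ligating enzymes, and the ligases, with their adaptor proteins, choose the substrate. The elongating spermatid uses this system to take apart much of its cytoplasm, and at the end of spermiogenesis the remainder is shed as a residual body that the Sertoli cell engulfs. Several of the ligases and adaptors involved are made in the testis and hardly anywhere else.

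Libraries held between 23480448 and 28558865 estimated counts. Nsun7 itself stood at 36.5 ± 0.760 CPM (counts scaled to library size with TMM factors; SD, n = 3) in WT testes and 20.3 ± 4.18 in Nsun7-/- testes (log2 fold change -0.84, edgeR adjusted p = 0.016), lower in 3 of 3 knockout libraries than in any wild-type library. That call was lost without WT mouse 1, 2 or 3 (edgeR adjusted p = 0.0848, 0.0556 and 0.0785) or Nsun7-/- mouse 2 (0.0930), and on log2 TPM with a pseudocount of 1 (limma, log2 fold change -0.46, adjusted p = 0.395). On that scale the median of all tested genes was 0.24. With each library centred on its median Nsun7 was at -0.75 (limma, adjusted p = 0.0877). Along the first principal component of all tested genes, which held 35.5% of the variance, the libraries followed genotype, with -38.3, -21.3 and -6.4 for WT mice 1, 2 and 3 and 1, 15.9 and 49.2 for the Nsun7-/- mice. WT mouse 1 and Nsun7-/- mouse 3 stood at the ends. Estimated fragments were 154.2, 167.7 and 175.1 bases long in WT mice 1, 2 and 3 and 175.7, 178.5 and 175.5 in the Nsun7-/- mice. Fragment length thus also separated the genotypes, with WT mouse 1 the shortest. The noncoding RNA Rmrp took 33.3%, 22.2% and 15.7% of TPM in the WT mice and 17.5%, 12.9% and 11.4% in the Nsun7-/- mice. All 10 listed markers of each germ cell stage, from spermatogonium to elongating spermatid, and of Sertoli cells had counts in all 6 libraries. Values below are given with all libraries first and, where the pattern turns on them, without WT mouse 1 and Nsun7-/- mouse 3.

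Upstream sequence was matched in RefSeq (GRCm38.p6) for 7 of the 9 members, not for Ubqlnl or Alox15. The 4 sequences below are shown because their genes share a short stretch close to the start site that the choice of members did not use, and because Rnf133 and Rnf148 are neighbours. Each holds the 250 bases before the annotated start, 5′ to 3′ on the gene's strand, and that of Rnf151 also the first base after it. They lie at chr6:23655137-23655386 (minus strand, Rnf148), chr3:153843997-153844246 (plus strand, Asb17), chr17:24718057-24718307 (minus strand, Rnf151) and chr6:23650306-23650555 (minus strand, Rnf133). Capitals mark the octamer TGATGTCA, which resembles TGACGTCA, the palindrome known as the cyclic AMP response element, and in Rnf133, which lacks the octamer, the hexamer ATGTCA it contains.
Rnf148: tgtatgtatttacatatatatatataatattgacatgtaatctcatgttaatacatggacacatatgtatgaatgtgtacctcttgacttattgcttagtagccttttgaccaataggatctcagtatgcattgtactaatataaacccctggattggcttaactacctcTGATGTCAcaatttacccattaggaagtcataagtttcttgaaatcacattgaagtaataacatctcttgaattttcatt
Asb17: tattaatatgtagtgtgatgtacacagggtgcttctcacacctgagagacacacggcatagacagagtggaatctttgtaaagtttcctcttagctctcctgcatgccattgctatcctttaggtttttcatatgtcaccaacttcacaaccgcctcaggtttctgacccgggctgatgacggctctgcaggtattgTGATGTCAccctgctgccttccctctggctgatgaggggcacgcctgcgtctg
Rnf151: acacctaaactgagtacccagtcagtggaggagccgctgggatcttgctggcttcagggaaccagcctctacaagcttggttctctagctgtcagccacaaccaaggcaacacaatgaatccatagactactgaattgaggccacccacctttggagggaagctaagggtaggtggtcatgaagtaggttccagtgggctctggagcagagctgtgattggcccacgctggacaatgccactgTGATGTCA
Rnf133: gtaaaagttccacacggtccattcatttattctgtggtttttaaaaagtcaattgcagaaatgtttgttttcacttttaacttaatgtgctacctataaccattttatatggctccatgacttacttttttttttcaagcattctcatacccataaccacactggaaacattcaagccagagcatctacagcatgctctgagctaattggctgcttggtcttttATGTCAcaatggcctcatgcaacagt
The octamer began at base -80 in Rnf148, -53 in Asb17 and -7 in Rnf151, counted so that -1 is the base before the start, and the hexamer at -26 in Rnf133. A further ATGTCA, left in small letters, began at -118 in Asb17, and 1 on the opposite strand at -220 in Rnf148. Searched on both strands over windows of 300 bases (250 before and 50 after the start), TGATGTCA was found in 3 of the 7 member promoters and in 3.62% of all 32851 promoters. ATGTCA was found in 4 of the 7 and in 14.1% of all, and TGACGTCA in 0 of the 7 and in 1.79% of all. The shorter TGACG was found in 1 of the 7 (Asb17) and 20.8% of all, and TATAAA in 2 of the 7 (Rnf133 and Rnf148) and 13.6% of all. The motif TGATGTCA was picked after the sequences had been read, and a match is a description of letters, not a site. The upstream 250 bases of Rnf148 were among the poorest in G and C (30.8%, above 1.78% of all promoters), while those of Marchf11 were rich in both (71.2%, above 92.2% of all).

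Most members were well expressed. On the deposited TPM scale, which divides by transcript length and so allows genes to be compared, Marchf11 was the most abundant, at 328 ± 43.5 TPM (SD, n = 3) in WT testes, above 99.1% of the 29407 genes with a wild-type value. It encodes a membrane-bound RING-CH ubiquitin ligase of developing spermatids. Rnf151, a RING finger protein of spermatids, followed with 200 ± 33.5 TPM, and Spem1, a spermatid protein required for shedding of the cytoplasm, with 151 ± 43.1 TPM. Klhl10, the spermatid adaptor of CUL3 ligases, stood at 84.4 ± 19.9 TPM and Asb17, an adaptor of the SOCS box family that works with CUL5, at 37.7 ± 13.0 TPM. Ubqlnl, a relative of the ubiquilins that carry ubiquitinated proteins to the proteasome, stood at 22.9 ± 8.25 TPM. The membrane RING ligases Rnf148 and Rnf133 were lower still, at 16.5 ± 3.86 and 14.6 ± 4.68 TPM. Alox15, a lipoxygenase that oxidizes membrane lipids and has been linked to organelle and cytoplasm breakdown in sperm, was barely detected at 0.870 ± 0.523 TPM, from 20, 32 and 25 counts in the wild-type mice and 13, 17 and 8 in the Nsun7-/- mice, each in the order of the mouse numbers.

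The order of these levels was largely the same in every library. Each gene stood above the next in the order in 6 of 6 libraries, except Rnf148 and Rnf133, where it was 4 of 6. Between mice, the wild-type ranges of Rnf151 and Spem1, of Asb17 and Ubqlnl, of Ubqlnl and Rnf148 and of Rnf148 and Rnf133 overlapped. Within libraries the first 3 of these pairs kept their order in 6 of 6, and the ranges of Ubqlnl and Rnf148 were separate in Nsun7-/- testes. Rnf148 and Rnf133 alone did not differ beyond their spread on either view. TPM of all genes moves with the share of Rmrp, which lowers every member of WT mouse 1 by the same factor and leaves the order within a library as it is.

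**Figure D1:**
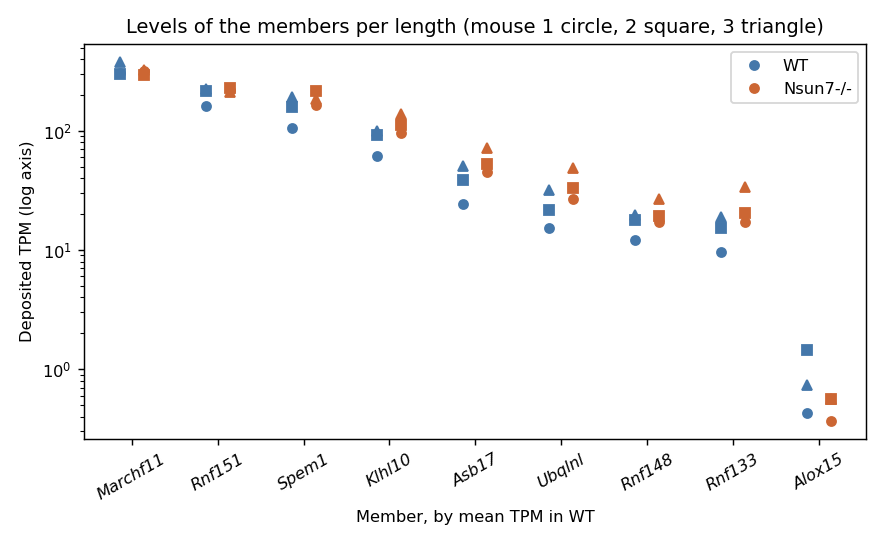
Deposited TPM of each member in each library on a log axis, members ordered by their wild-type mean, with blue symbols for wild type and orange for Nsun7-/-. Marchf11 lies between 292 and 378 TPM and Alox15 is listed below 2 TPM in each.

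No member passed the test of knockout against wild type. In edgeR's quasi-likelihood fit over all 21002 tested genes, 0 of the 9 members had a Benjamini-Hochberg adjusted p under 0.05, while 0.567% of all tested genes did. DESeq2 also called 0 of the 9 and 1.01% of all genes. At an unadjusted p under 0.05 there were 4 members, against 8.39% of all tested genes. Because the members were chosen with earlier results of these data known, this comparison is a description only. The 4 were Alox15 and Marchf11 with values below 0 (3.92% of all genes) and Ubqlnl and Rnf133 above 0 (4.48%). The smallest adjusted p among the 9 was 0.390. The median log2 fold change of the members was 0.04, beside 0.01 over all tested genes, with 6 members above 0 and 3 below. For 2 of the 9, Marchf11 and Alox15, all CPM values of one genotype lay apart from those of the other, both lower in Nsun7-/- testes, as for 14.3% of all tested genes (6.94% lower). In deposited TPM this held for 0 of the 9 and for 20.1% of all tested genes. In a bulk sample fewer cells of a type and less RNA per cell cannot be told apart.

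**Figure D2:**
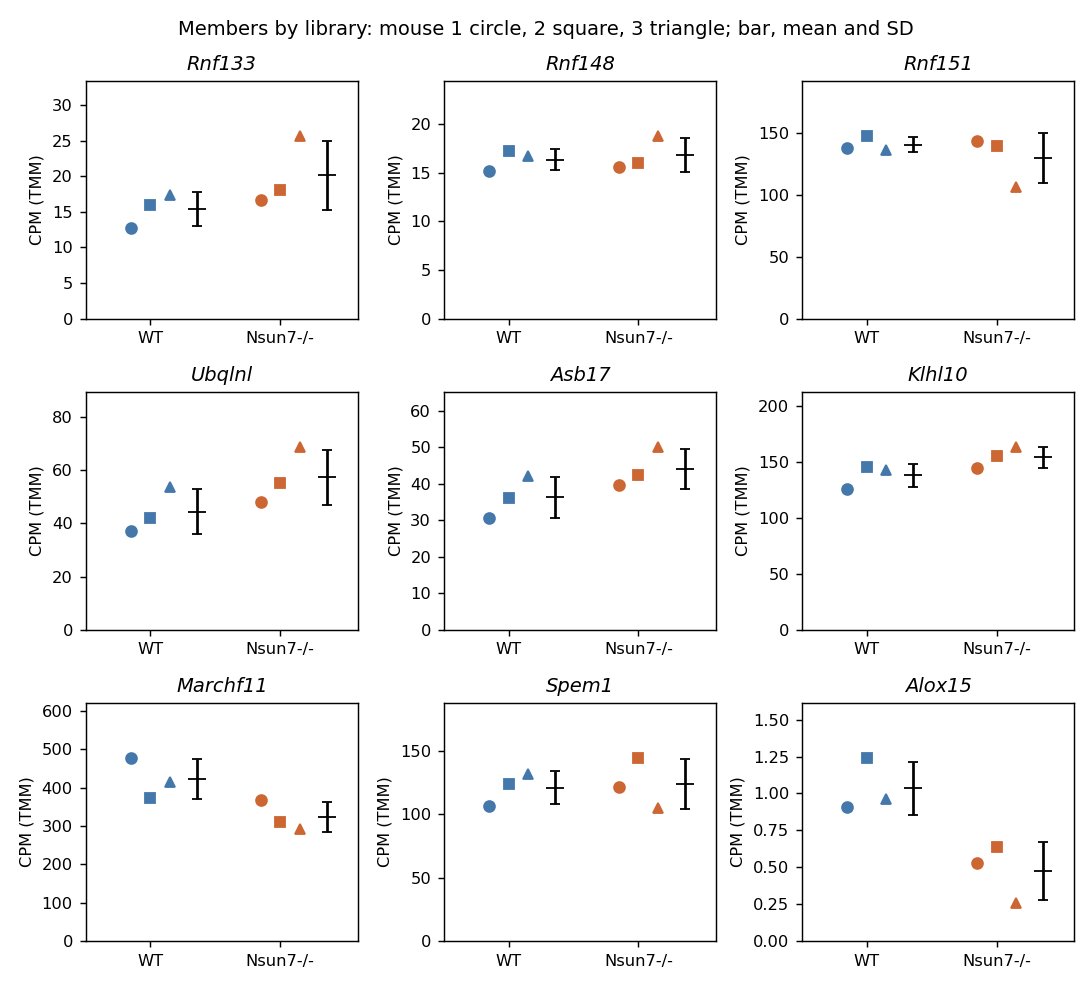
CPM (TMM-scaled) of the 9 members, 1 panel each with its axis from 0, in wild-type (blue) and Nsun7-/- (orange) mice, with the mean and SD (n = 3) as black bars. The genotypes do not overlap for Marchf11 and Alox15 and overlap for the other 7.

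Among the ligases bound to membranes, Marchf11 was lower in each knockout library than in any wild-type library. In mouse order its CPM was 477, 374 and 414 in WT testes and 369, 312 and 294 in Nsun7-/- testes. Nsun7-/- mouse 1 came close to WT mouse 2, and the highest value was that of WT mouse 1. The log2 fold change was -0.38 (SE 0.14, edgeR adjusted p = 0.456), with a 95% interval from -0.67 to -0.08, that is from 0.628 to 0.943 of the wild-type level. An exact two-sided permutation test of the 6 values gave p = 0.1, the smallest that 3 against 3 libraries allow. In deposited TPM the genotypes overlapped, with 306, 300.4 and 378 in WT testes and 320, 292 and 323 in Nsun7-/- testes. On log2 TPM (pseudocount 1) the median log2 fold change of all tested genes was 0.24 and that of Marchf11 -0.07 (limma, adjusted p = 0.807). With each library centred on its median Marchf11 was at -0.35 (limma, adjusted p = 0.548).

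Rnf133, which encodes an endoplasmic reticulum ligase of spermatids that works with the conjugating enzyme UBE2J1, had its highest value in Nsun7-/- mouse 3. Its CPM was 12.8, 16.0 and 17.4 in WT testes and 16.7, 18.1 and 25.7 in Nsun7-/- testes, in mouse order, and the genotypes overlapped through Nsun7-/- mouse 1. This was a log2 fold change of 0.39 (SE 0.18, edgeR adjusted p = 0.587). Its neighbour Rnf148, a ligase of the same family, stood at 15.1, 17.2 and 16.7 CPM in WT testes and 15.5, 16.0 and 18.8 in Nsun7-/- testes. All but the value of Nsun7-/- mouse 3 lay within the range of the wild-type mice. Its log2 fold change of 0.04 had a 95% interval from -0.26 to 0.33, so a fold between 0.838 and 1.26 is within its error. Both genes lie on the minus strand of chromosome 6 inside the annotated extent of Cadps2 (per GENCODE M21, which is built on GRCm38), on the same strand as that gene. Cadps2 itself was low, at 4.36 ± 1.25 CPM in WT testes and 4.54 ± 0.841 in Nsun7-/- testes (SD, n = 3). Ube2j1 stood at 138 ± 16.2 and 152 ± 19.0 CPM (log2 fold change 0.15, edgeR adjusted p = 0.739).

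Rnf151 lay close together in 5 libraries and lower in 1. Its CPM was 138, 148 and 136 in WT testes and 143, 139 and 107 in Nsun7-/- testes. The value of Nsun7-/- mouse 3 alone lay outside the range of the others, and without that library the log2 fold change went from -0.12 (SE 0.13, edgeR adjusted p = 0.785) to 0.000793. On log2 TPM with a pseudocount of 1 it was 0.15, on a scale on which the median of all genes was 0.24.

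The adaptor genes had values above 0 that did not pass. Asb17 stood at 30.7, 36.2 and 42.0 CPM in WT testes and 39.8, 42.4 and 50.1 in Nsun7-/- testes. WT mouse 3 lay within the Nsun7-/- range and WT mouse 1 was the lowest of all. Its log2 fold change was 0.28 (SE 0.14, edgeR adjusted p = 0.626). Klhl10, at 126, 145 and 142 CPM in WT testes and 144, 155 and 163 in Nsun7-/- testes, overlapped through WT mouse 2 and Nsun7-/- mouse 1 (log2 fold change 0.16, SE 0.12, edgeR adjusted p = 0.689). Their cullin scaffolds did not pass either. Cul3 had a log2 fold change of -0.01 (edgeR adjusted p = 0.985, 95% interval from 0.792 to 1.24 of the control level) and Cul5 of 0.05 (adjusted p = 0.909, interval from 0.866 to 1.24). The antisense gene Asb17os, which overlaps Asb17 on the other strand, averaged 0.0279 CPM in WT testes and 0.0485 in Nsun7-/- testes, too low to test.

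Ubqlnl followed the same order as Asb17. Its CPM was 37.3, 42.0 and 53.7 in WT testes and 48.1, 55.0 and 68.7 in Nsun7-/- testes, and WT mouse 3 lay above Nsun7-/- mouse 1. Its log2 fold change was 0.37 (SE 0.16, edgeR adjusted p = 0.568), with a 95% interval from 0.03 to 0.71. The general ubiquilin Ubqln1 had a log2 fold change of 0.07 (edgeR adjusted p = 0.871).

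Spem1, whose loss leaves cytoplasm on the sperm head, had genotypes that overlapped widely. Its CPM was 107, 124 and 132 in WT testes and 122, 145 and 105 in Nsun7-/- testes, so that the lowest and the highest library were both knockouts. The log2 fold change was 0.03 (SE 0.14, edgeR adjusted p = 0.954), with a 95% interval from 0.835 to 1.25 of the wild-type level. Its neighbour Spem2 was at 289 ± 53.6 CPM in WT testes and 263 ± 55.4 in Nsun7-/- testes (log2 fold change -0.14, edgeR adjusted p = 0.808). Alox15 stood at 0.905, 1.24 and 0.962 CPM in WT testes and 0.525, 0.637 and 0.258 in Nsun7-/- testes, each knockout library below each wild-type library. The log2 fold change of -1.14 (SE 0.38, edgeR adjusted p = 0.390; two-sided exact permutation p = 0.1, the smallest possible) had a wide 95% interval, from 0.256 to 0.801 of the wild-type level, with 8 to 32 counts per library behind it.

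Alox15 is also known from macrophages and eosinophils. The 11 macrophage markers all had counts in each library and summed to between 229 and 303 CPM in WT testes and between 245 and 421 in Nsun7-/- testes, with 0 of the 11 called and a median log2 fold change of 0.24, opposite in sign to Alox15. Eosinophil markers were near 0, with 6 of 7 having any count, Ear6 at 0 in all libraries, and sums between 0.271 and 0.539 CPM in WT testes and between 0.404 and 0.787 in Nsun7-/- testes. The part of either cell type in the values of Alox15 was not tested.

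**Figure D3:**
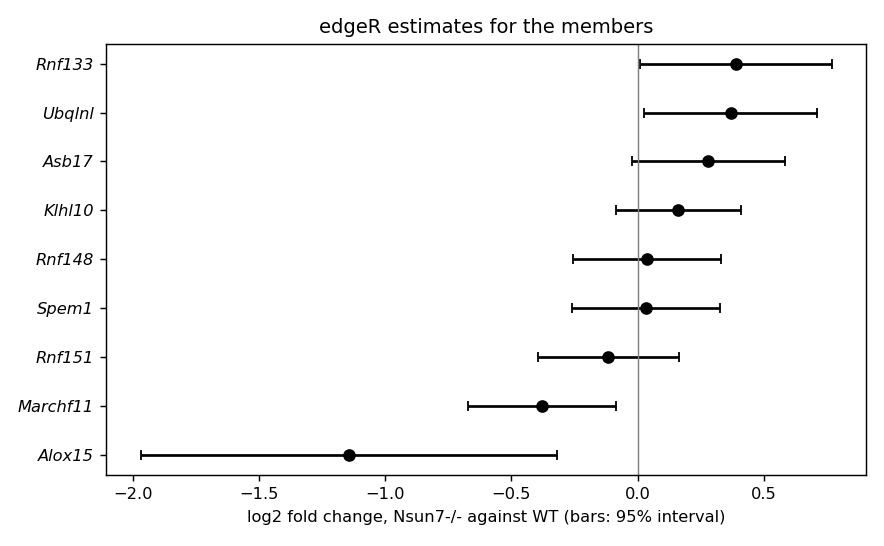
edgeR log2 fold change of each member, knockout against wild type, with its 95% interval before adjustment for the number of genes tested. The intervals of Rnf133, Ubqlnl, Marchf11 and Alox15 leave out 0, and that of Alox15 is the widest.

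Several members varied together from mouse to mouse. Over the 6 libraries the Pearson r of log2 CPM was 0.99 between Ubqlnl and Asb17, 0.96 between Rnf133 and Ubqlnl, and 0.96 between Rnf133 and Asb17. Klhl10 had r = 0.93 with both Rnf133 and Asb17 and -0.97 with Marchf11. Of the 36 pairs 5 were over 0.9 and 1 under -0.9. Spem1 stood apart from this, with r = 0.14 to Asb17 and 0.21 to Klhl10. These values are descriptions over 6 points that share their libraries and scaling. Rnf133, Ubqlnl, Asb17, Klhl10 and Rnf148 were each lowest in WT mouse 1 and highest in Nsun7-/- mouse 3, and Marchf11 the reverse, the same libraries that stood at the ends of the first principal component, which also separates the genotypes (r with it 0.97, 0.96, 0.95, 0.93, 0.69 and -0.91). The octamer described above occurred upstream of Asb17 and Rnf148 and at the start of Rnf151. The r of Rnf151 with that component was -0.78, with its highest value in WT mouse 2 and its lowest in Nsun7-/- mouse 3.

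**Figure D4:**
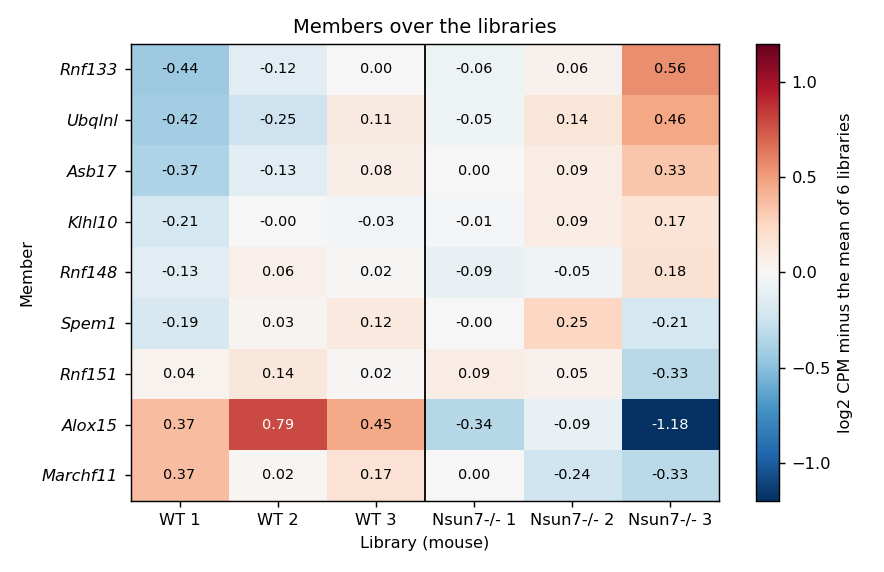
Log2 CPM (prior count 2) of each member in each library minus its mean over the 6 libraries, members ordered by their correlation with the first principal component. WT mouse 1 and Nsun7-/- mouse 3 carry the strongest colours in opposite directions for Rnf133 (-0.44 and 0.56) and Ubqlnl (-0.42 and 0.46).

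WT mouse 1 and Nsun7-/- mouse 3 were also left out together. For members that were at their extremes in these libraries a smaller difference follows from that choice, so the values are a description. The log2 fold change became 0.06 for Rnf133, 0.11 for Ubqlnl, 0.07 for Asb17 and 0.06 for Klhl10, -0.10 for Rnf148, -0.01 for Rnf151 and 0.05 for Spem1. Marchf11 was then at -0.21 and Alox15 at -0.91, with edgeR adjusted p of 0.821 and 0.734. Without Nsun7-/- mouse 3 alone Rnf133 was at 0.17 and Ubqlnl at 0.21. The summed elongating spermatid markers ran from 8198 to 10756 CPM in WT testes and from 7411 to 10203 in Nsun7-/- testes, with Nsun7-/- mice 3 and 1 lowest at 7411 and 7429. Those of round spermatids ran from 951 to 1035 and from 1029 to 1056, with the lowest in WT mouse 1. Of the 10 elongating spermatid markers 6 were below 0 and 4 above, with a median log2 fold change of -0.21. Of the 10 round spermatid markers 8 were above 0 and 2 below, with a median of 0.10. The pachytene spermatocyte markers were lowest in Nsun7-/- mouse 3, at 6641 CPM against 7955 to 9644 in the others. So were those of spermatogonia, at 351 against 395 to 444, and of Sertoli cells, at 3221 against 3940 to 4818. Among somatic lists, 2 of 10 Leydig markers were called higher in Nsun7-/- testes (median log2 fold change 0.58, 9 of 10 above 0), with sums from 1897 to 3050 CPM in WT testes and from 2327 to 5121 in Nsun7-/- testes. The 9 peritubular myoid markers had 0 called and 9 below 0, with sums from 777 to 822 and from 629 to 749 CPM that did not overlap. The lowest of these sums was also that of Nsun7-/- mouse 3. The part of cell makeup, fragment length or single libraries in the members' values was not tested.

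The genes beside the members on the chromosome gave a further comparison. Of 16 such genes that are not members 11 were tested and 0 called. Nt5c3b, beside Klhl10, had a log2 fold change of -0.17. Klhl11, on the other side of Klhl10, was at 0.11, Tbl3 and Rps2 around Rnf151 at -0.16 and -0.03, and Gm41279 and Fbxl7 around Marchf11 at 0.06 and -0.05. Nlgn2 beside Spem1 was at -0.16, Pelp1 beside Alox15 at -0.09 and Msh4 beside Asb17 at 0.10, while Fezf1, Tas2r118, Olfm5, 5730460C07Rik and Alox12e were too low to test. The miRNA gene Gm27374, annotated on the other strand within Klhl10, was not analysed here.

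Among 17900 genes with a mean of at least 1 CPM, those whose log2 CPM followed a member most closely over the 6 libraries had r between 0.98 and 1.00. For Rnf133 they were Wwp1 and Herc4, both ubiquitin ligases, and Celf1. They were Tor1aip1, Fnbp1 and Naa35 for Ubqlnl, 1700030O20Rik, Atxn1l and Gm10874 for Asb17, and Gm35309, Zfand6 and Adam1a for Klhl10. Rnf148 was followed by Prickle2, Ceacam2 and Gm20852, and Rnf151 by Snap47, Pygo2 and Itga7. For Marchf11 the list held Junb and ENSMUSG00000120330, for Spem1 Nup214, Gak and Asb8, and for Alox15 Cspg4, Accs and Slc52a2. Many genes shared these patterns: r was over 0.9 with Rnf133 for 1221 genes (6.82%), with Rnf151 for 1255 and with Spem1 for 144.

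Of the 9 members 3 had a single annotated transcript, and the estimates divided the others among isoforms. The members had 17 annotated transcripts, of which 15 were tested, 0 passed (0.0272% of 58773 transcripts did) and 2 had an unadjusted p under 0.05 (4.76% of all tested transcripts), with a smallest edgeR adjusted p of 0.923. For Asb17 most counts, 69.9% to 76.8% in the 6 libraries, were given to a transcript of 1052 bases annotated as a target of nonsense-mediated decay, and the rest to the coding transcript of 2553 bases. In TPM, the scale on which the members were ranked, the decay transcript held 86.1% to 90.0% of Asb17. For Marchf11 the coding transcript of 1558 bases held 63.7% of the counts in WT mouse 1 and 78.9% to 85.3% in the other mice. Its transcript of 1365 bases held 29.6% in WT mouse 1 and 11.0% to 16.0% elsewhere, so that mouse differed in the estimated split as well as in level. That library also had the shortest estimated fragments, and their part in the split was not tested. The transcript of 2146 bases held 5.25% ± 1.45 in WT testes and 3.60% ± 0.240 in Nsun7-/- testes (SD, n = 3), with no overlap in share and a log2 fold change in counts of -0.97 (95% interval from -1.66 to -0.29, unadjusted p = 0.0123, edgeR adjusted p = 0.923 over all transcripts). Rnf151 had 40.1% ± 3.72 of its counts on a transcript of 706 bases in WT testes and 35.0% ± 2.03 in Nsun7-/- testes, and Rnf133 27.2% ± 5.91 and 34.6% ± 2.76 on one of 1308 bases. These shares did not overlap between the genotypes either, and how often that held over all transcripts was not computed. The nearest libraries were close, at 36.7% in WT mouse 3 and 36.3% in Nsun7-/- mouse 1 for Rnf151. For Rnf133 they were at 31.9% in WT mouse 1 and 32.2% in Nsun7-/- mouse 2. For the 2146-base transcript of Marchf11 they were at 3.90% in WT mouse 2 and 3.79% in Nsun7-/- mouse 3. The Rnf133 transcript was the other with an unadjusted p under 0.05 (log2 fold change in counts 0.77, edgeR unadjusted p = 0.0229, adjusted p = 0.932). Alox15 had a noncoding transcript of 432 bases that took 2.94% to 29.3% of its counts but 19.6% to 78.1% of its TPM, and its TPM did not rank the libraries as its CPM did.

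**Figure D5:**
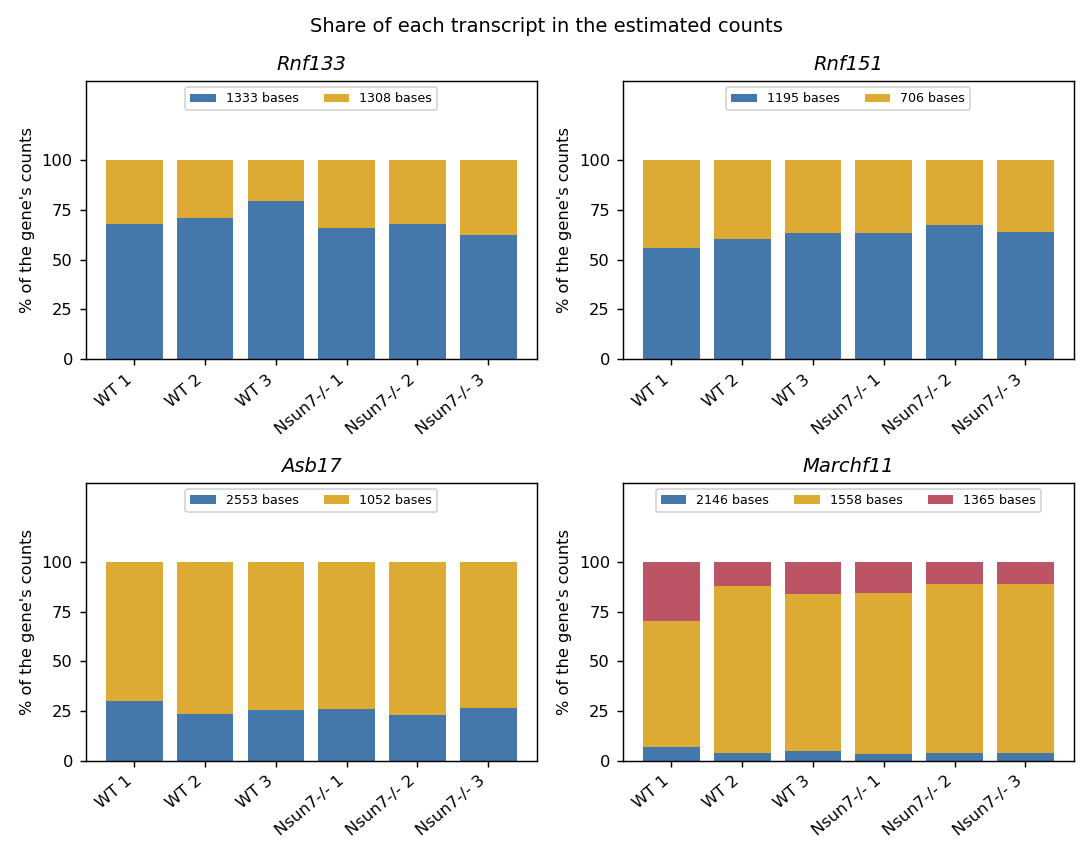
Share of each annotated transcript, in % of the gene's estimated counts, for the 6 libraries and for Rnf133, Rnf151, Asb17 and Marchf11. The 1365-base transcript of Marchf11 takes 29.6% in WT mouse 1 and at most 16.0% in the others.

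The wider ubiquitin and cytoplasm removal genes showed 0 called in either direction among 113 tested of 116 listed, beside 0.567% of all tested genes. There were 7 with an unadjusted p under 0.05, where the share over all tested genes was 8.39%, and the median log2 fold change of the 113 was 0.04, with 62 above 0 and 51 below. Of the 9 other ligases of the Rnf133 family 0 passed, with Rnf150 at 0.34 (edgeR adjusted p = 0.630) and Rnf130 at 0.22 (0.637). Of 10 other MARCH ligases 0 passed, with Marchf8 at 0.23 (0.636) and Marchf7 at 0.30 (0.650). Of 19 tested genes of the ASB and CUL5 group 0 passed. Its member with the smallest p was Asb4, an adaptor also known from placental vessels, at 23.9 ± 4.82 CPM in WT testes and 15.5 ± 1.91 in Nsun7-/- testes (SD, n = 3; log2 fold change -0.62, SE 0.16, edgeR adjusted p = 0.167). DESeq2 called it (log2 fold change -0.64, adjusted p = 0.0398). Asb6 followed at -0.35 (edgeR adjusted p = 0.532).

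Of the 16 genes around CUL3, 0 passed, with the CUL exchange factor Cand1 at 0.24 (edgeR adjusted p = 0.631) and Klhl9 at 0.23 (0.652). Of 11 ubiquilins and shuttle factors 0 passed, with Ddi1 at 0.29 (0.607). Of 23 further ubiquitin enzymes used by germ cells 0 passed, 16 of them above 0, with the large HECT ligases Huwe1 at 0.23 (0.641) and Herc2 at 0.20 (0.658). The 4 genes listed for cytoplasm removal had 0 called, with Capza3, an actin-capping subunit of spermatids, at 0.22 (0.665) and Spem3 at 0.12 (0.768). On the Sertoli side, where residual bodies are engulfed, 0 of 14 passed, with Pros1, which bridges to the TAM receptors, at 0.31 (0.512) and the engulfment factor Dock1 at 0.31 (0.541). Of 7 tested genes of lipoxygenases and lipid peroxide handling 0 passed. Alox5, the leukocyte lipoxygenase, stood at 0.950, 2.17 and 2.42 CPM in WT testes and 3.80, 3.63 and 3.46 in Nsun7-/- testes, with WT mouse 1 well below the rest (log2 fold change 0.96, edgeR adjusted p = 0.257), and Alox12 at -0.28 (0.626).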

How the data were processed

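Libraries of testis RNA from 3 wild-type and 3 Nsun7-/- mice, 1 mouse each, were used as deposited. The authors deposited estimated counts and TPM by gene symbol and by transcript, for which the submitters' processing notes name kallisto 0.50.1 and the build mm39. The sources used here give neither annotation release nor strand setting. Gene counts were whole numbers, transcript estimates were rounded, and TPM was the authors' own. No other sample's column was present.

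The test of counts was edgeR 4.0.16 in R 4.3.3 (TMM, filterByExpr with minimum count 10 and minimum total 15, robust quasi-likelihood test of genotype), with Benjamini-Hochberg adjustment over all tested rows and a threshold of 0.05. An SE is the log2 fold change over the square root of F. Positive values mean higher in Nsun7-/- testes. The test was also run on simulated data. Alternatives used DESeq2 1.42.0, limma 3.58.1 on log2 TPM (pseudocount 1 or 0.1), other scaling and filters, a replicate block, and fewer libraries.

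The members and lists were chosen with earlier results of these data known. Named genes are the members, Nsun7, the 2 genes of smallest p per list, the 3 genes most correlated with each member, and genes overlapping or beside a member. Neighbours are the nearest gene on each side that has a row in the gene table. Some genes that the rule names are not reported here. Cul3, Cul5, Ube2j1 and Ubqln1 were added for their known roles after their values had been seen.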

Additional observations from a re-analysis of the deposited data

How the results depend on the processing

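The count of members past the threshold was 0 in all 15 alternatives, with a smallest adjusted p of 0.0936, for Ubqlnl with the mouse number as a replicate block; Alox15, under a mean of 1 CPM, was not tested at that filter. Of 134 member values 126 kept their direction and 8 did not. Rnf151 was at 0.15 on log2 TPM with either pseudocount and Rnf148 at -0.10 without WT mouse 1 and Nsun7-/- mouse 3, an alternative chosen after seeing the data. Leaving out 1 library at a time gave ranges from -0.0570 to 0.0798 for Rnf148, from -0.203 to 0.000793 for Rnf151 and from -0.0935 to 0.131 for Spem1. In deposited TPM, where the median log2 fold change of all tested genes was 0.24 (pseudocount 1), 0 members, rather than 2, had genotypes without overlap. For the wider lists the count of called genes was 1, Asb4, in DESeq2 and 1, Asb4, with the block (adjusted p = 0.0194), and 0 in the other settings. The cause was not tested. Member transcripts called were 0 with and without the transcript filter. Same-numbered mice had correlations of 0.18, 0 and 0.2 in their deviations from the group means, and mice of unlike number from -0.24 to 0.06. Mice 1 and 3 thus correlated best with their own number, while mouse 2 of the wild type did so with Nsun7-/- mouse 1 (0.06). The labels state no pairs or batch, so the numbers were not taken as pairs in the main test. Whether they mark a batch cannot be told from these values. Over all genes 119 were called, against 331 with the block, 213 in DESeq2, 180 with no filter, 61, 68 and 63 on log2 TPM with pseudocounts 1 and 0.1 and centred, 67, 78 and 78 without WT mouse 1, 2 and 3, and 166, 100 and 122 without Nsun7-/- mouse 1, 2 and 3. With 3 mice a genotype the narrowest 95% interval of a member, that of Klhl10, ran from -0.09 to 0.41.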

Other observations

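The neighbours Rnf133 and Rnf148 had r = 0.85 with each other over the 6 libraries (log2 CPM), and both were lowest in WT mouse 1 and highest in Nsun7-/- mouse 3. Their ratio was looked at after the values had been seen. The ratio of Rnf133 to Rnf148, which does not depend on library scaling, was 0.785, 0.859 and 0.961 in TPM in WT testes and 0.993, 1.04 and 1.27 in Nsun7-/- testes, in mouse order. It was higher in 3 of 3 knockout libraries than in any wild-type library (0.868 ± 0.0885 against 1.10 ± 0.146, SD, n = 3; two-sided exact permutation test on log2 ratios, p = 0.1, the smallest possible, and 0.3 after Benjamini-Hochberg adjustment over the 3 ratios computed). WT mouse 3 and Nsun7-/- mouse 1 were close to each other. From lowest to highest, the ratio of Rnf133 to Rnf148 ranked the libraries as the first principal component did. The ratio of Spem1 to Spem2, also neighbours, overlapped between the genotypes (p = 0.3 by the same exact permutation test).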
